A study of Mus musculus with 6 samples.

Results

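Pancreatic duct cell genes were followed in RNA from isolated mouse islets, where duct cells are not the intended tissue. The group comprised 9 genes, chosen by symbol from the 24421 rows of the deposited count table, and all 9 were found: the keratins Krt7 and Krt19, the regulators Sox9 and Bicc1, the surface and channel proteins Cftr, Muc1 and Tspan8, and the secreted glycoproteins Spp1 and Clu. The series held 6 libraries from mice of the C57BL/6J strain. In 3 of them the genotype label was control, and in the other 3 it was C57.DhpsloxP.MIP1-CreERT, described as a knockout specific to β cells. In that genotype a floxed Dhps allele, which encodes deoxyhypusine synthase, is combined with an inducible Cre recombinase under the mouse insulin promoter, so recombination is directed to β cells and not to duct cells. Whether the controls carried the Cre transgene, and the age, diet and inducer of either group, were not given in the labels. An effect of the transgene and one of the deletion therefore cannot be told apart, and the prefix HF of the sample names was not spelled out. The labels also did not say that replicates came from separate animals, and p-values thus measure the spread of these samples only, which may be technical.

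Pancreatic ducts are simple epithelial tubes that carry acinar enzymes to the gut and add a bicarbonate-rich fluid, for which the chloride and bicarbonate channel CFTR is central. SOX9 is the transcription factor that marks duct cells and embryonic pancreatic progenitors, and KRT19 and KRT7 are intermediate filament proteins of simple epithelia. Islet isolation frees islets from surrounding exocrine tissue, and duct and acinar fragments can remain attached. Several of the 9 genes are also known outside ducts: Spp1 in macrophages, Clu in many stressed or secretory cells, and Krt7 and Krt19 in other epithelia and in mesothelium.

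Totals per library lay between 21027737 and 23249895 counts assigned to genes. Dhps, the targeted gene, did not separate the groups: control libraries held 260, 321 and 312 of its counts, the other 3 held 266, 271 and 225 (log2 fold change −0.07 ± 0.12 SE, adjusted p = 0.742 in edgeR's quasi-likelihood test). Its counts summed whole transcripts, so they do not check the deletion, and the second group is called knockout-labelled below. The hormone transcripts Gcg, Ins1, Ins2, Iapp, Ppy and Sst summed to between 408936 and 554013 CPM (counts scaled to library size, here with TMM factors) over the 6 libraries, so the labelled tissue was seen in each. Control 3 stood apart in its exocrine content. The 12 acinar markers summed to 736 CPM there, against 7680.2 and 6956 CPM in controls 1 and 2 and 18537 to 20991 CPM in knockout-labelled islets.

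Sequence upstream of the annotated start was taken from RefSeq windows on GRCm38.p6 (the mm10 assembly), which matched 5 of the 9 genes. The 250 bases upstream of 3 of them are shown, because these genes behaved differently across libraries as described further on: Spp1 passed the test between groups, Muc1 ranged widely between libraries without passing it, and Krt7 hardly varied. The windows are chr5:104434861-104435110 for Spp1, chr3:89228806-89229055 for Muc1 and chr15:101412153-101412402 for Krt7, all on the plus strand, and each ends 1 base before a start that is also the first base of the gene in the deposited table. Capitals mark matches on either strand to any of 6 searched motifs: the SOX letters AACAAT, the HNF1 half-site GTTAAT, the ONECUT core ATTGAT, the AP-1 site TGANTCA, the TEAD site CATTCC and the TATA box TATAAA.
Spp1: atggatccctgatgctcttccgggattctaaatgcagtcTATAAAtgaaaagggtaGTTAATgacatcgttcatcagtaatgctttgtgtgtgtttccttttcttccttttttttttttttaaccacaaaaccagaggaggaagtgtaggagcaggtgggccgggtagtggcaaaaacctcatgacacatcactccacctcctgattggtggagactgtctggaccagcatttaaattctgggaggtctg
Muc1: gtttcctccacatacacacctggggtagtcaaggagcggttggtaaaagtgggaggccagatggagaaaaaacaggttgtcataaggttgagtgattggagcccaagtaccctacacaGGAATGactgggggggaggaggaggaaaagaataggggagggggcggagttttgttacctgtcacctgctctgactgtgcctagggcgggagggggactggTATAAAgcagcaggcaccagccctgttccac
Krt7: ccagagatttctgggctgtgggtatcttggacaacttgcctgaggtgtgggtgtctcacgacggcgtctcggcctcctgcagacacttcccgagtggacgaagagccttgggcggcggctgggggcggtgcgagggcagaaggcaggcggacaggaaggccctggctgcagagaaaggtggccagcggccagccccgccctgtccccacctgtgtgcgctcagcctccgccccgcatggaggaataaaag
In the window shown, Spp1 held the HNF1 half-site letters 194 bases and TATAAA 211 bases upstream of the start. Another RefSeq window of Spp1, chr5:104435942-104436191, is not shown and held no match to the 6 motifs. Muc1 held TATAAA 31 bases upstream and, on the minus strand, the TEAD letters 132 bases upstream. The Krt7 window held none of these letters, and no matches overlapped. Among 32851 RefSeq windows of this length, 12.4% held TATAAA, 12.6% the TEAD letters and 6.43% the HNF1 half-site, so such matches are common, and they are given as a description of these windows alone.

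Per kilobase of exon, the 9 genes spanned several orders of magnitude in islet RNA. In the controls the level of Krt7 was 124 ± 21.6 CPM per kb and that of Clu 97.2 ± 23.4 (SD, n = 3 libraries here and for each group below), and these neighbours overlapped. Spp1 (34.7 ± 16.5) and Tspan8 (26.5 ± 12.5) followed and overlapped each other. Krt19, at 6.24 ± 5.87 CPM per kb, overlapped Bicc1 at 4.37 ± 0.792. Muc1 (1.61 ± 1.24) and Sox9 (1.39 ± 0.979) overlapped as well, and Cftr was last at 0.00220 ± 0.00382, from 1 count in all. In the knockout-labelled libraries Clu stood first at 187 ± 24.2 CPM per kb, above Krt7 at 125 ± 5.94 in each of the 3 libraries, and the order of the others was the same. The most abundant keratin of the 9 was thus Krt7, not the duct marker Krt19, in both groups.

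**Figure D1:**
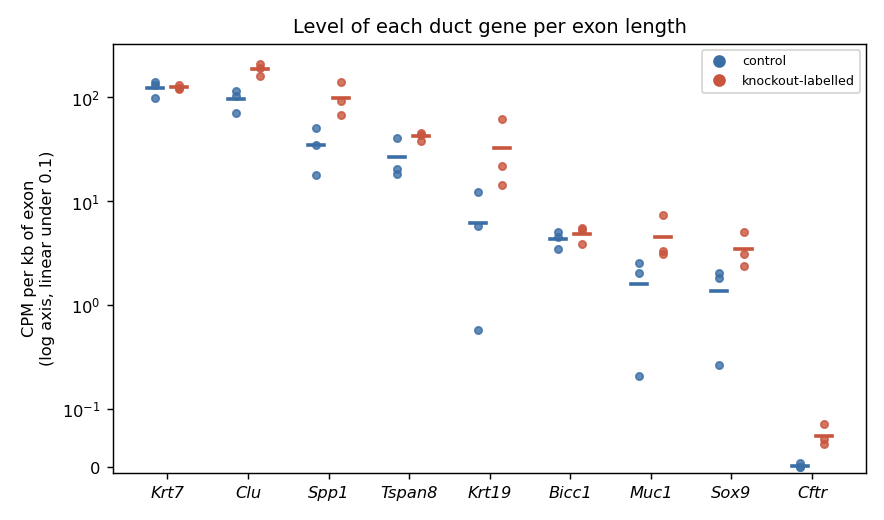
Level of each duct gene in CPM per kb of exon on a log axis that is linear under 0.1, with 1 point per library and a bar at the group mean (blue control, red knockout-labelled). Krt7 lies near 124 CPM per kb in both groups, while Krt19 spreads from 0.576 to 62.1 over the 6 libraries.

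The 2 secreted glycoproteins were higher in the knockout-labelled islets, and the other 6 tested duct genes did not pass the test. Of the 9 genes, 8 passed edgeR's filter on low counts and Cftr did not. With edgeR's quasi-likelihood test adjusted over all 13736 genes tested, 2 of the 8 rose, where 4.14% of all genes tested rose and 6.76% were called in either direction. None of the 8 fell (0 with an unadjusted p under 0.05 in that direction, and 0 in DESeq2 or limma-voom). A total of 6 of the 8 had an unadjusted p under 0.05, all with higher values in the knockout-labelled group. In 5 of the 8 each knockout-labelled library lay above each control, which held for 16.9% of all genes tested (32.1% were separated in either direction). The median log2 fold change of the 8 was 1.15, beside 0.01 over all genes tested. In bulk RNA, more duct cells, more of these transcripts per cell and more of them from other cell types cannot be told apart.

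Clu encodes clusterin, a secreted chaperone-like glycoprotein (chromosome 14, 65968483 to 65981545 on mm10, 9 exons). Its level was 210.4, 188 and 129 CPM in controls 1 to 3 and 379, 292 and 344 CPM in knockout-labelled islets. Each knockout-labelled library lay above each control. The log2 fold change was 0.94 ± 0.18 (SE, 95% interval 0.54 to 1.35, adjusted p = 0.0231 in edgeR), a 1.92-fold rise. The adjusted p was 0.0800 without control 2, 0.0796 without knockout-labelled 1 and 0.0510 without knockout-labelled 3, so the call rested on these libraries, while the log2 fold change stayed between 0.75 and 1.09 when single libraries were left out.

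Spp1 encodes osteopontin, a secreted phosphoprotein that binds integrins and CD44 (chromosome 5, 104435111 to 104441053, 7 exons). Controls 1 to 3 held 1829, 1387 and 757 counts and knockout-labelled 1 to 3 held 5273, 3253 and 2197, or 84.6, 57.8 and 29.9 CPM against 232, 153 and 112 CPM. The groups did not overlap, with control 3 lowest and knockout-labelled 1 highest. Spp1 rose by 1.53 ± 0.35 on the log2 scale (95% interval 0.75 to 2.31, adjusted p = 0.0350 in edgeR), or 2.88-fold. Leaving out control 2 gave an adjusted p of 0.125, control 3 gave 0.0718, knockout-labelled 1 gave 0.109 and knockout-labelled 2 gave 0.0539. Without both control 3 and knockout-labelled 1, a setting chosen after seeing the data, the log2 fold change was 0.89 for Spp1 (adjusted p = 0.142) and 0.67 for Clu (adjusted p = 0.128).

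The keratins behaved unlike each other. Krt19 (chromosome 11, 100140811 to 100145919 on the minus strand, 6 exons) had 365, 193 and 20 counts in control islets and 1938, 644 and 392 in knockout-labelled islets. This corresponds to 16.9, 8.04 and 0.791 CPM against 85.3, 30.3 and 19.9 CPM. Its groups did not overlap, but levels within a group differed 21.4-fold among controls and 4.28-fold among knockout-labelled libraries. With a log2 fold change of 2.42 ± 0.76 (95% interval 0.72 to 4.11) Krt19 had the largest estimate of the 8 and missed the threshold (adjusted p = 0.0804 in edgeR). Its value was 3.36 and called without control 1 (adjusted p = 0.0472). It was 1.56 without knockout-labelled 1 (adjusted p = 0.270) and 1.01 without both control 3 and knockout-labelled 1 (adjusted p = 0.213).

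Krt7 (chromosome 15, 101412403 to 101427806, 9 exons) was nearly level over the same libraries. It stood at 158, 222 and 209 CPM in control islets and at 196, 189.8 and 208 CPM in knockout-labelled islets, with overlapping groups. The log2 fold change was 0.01 ± 0.14, with a 95% interval of −0.29 to 0.32 (adjusted p = 0.964 in edgeR). Control 3, which had the lowest Krt19 level of the 6 libraries, had a Krt7 level above that of control 1. The ratio of Krt7 to Krt19 per kb was 229 in control 3, 8.08 and 24.0 in controls 1 and 2, and between 1.99 and 9.07 in knockout-labelled islets.

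**Figure D2:**
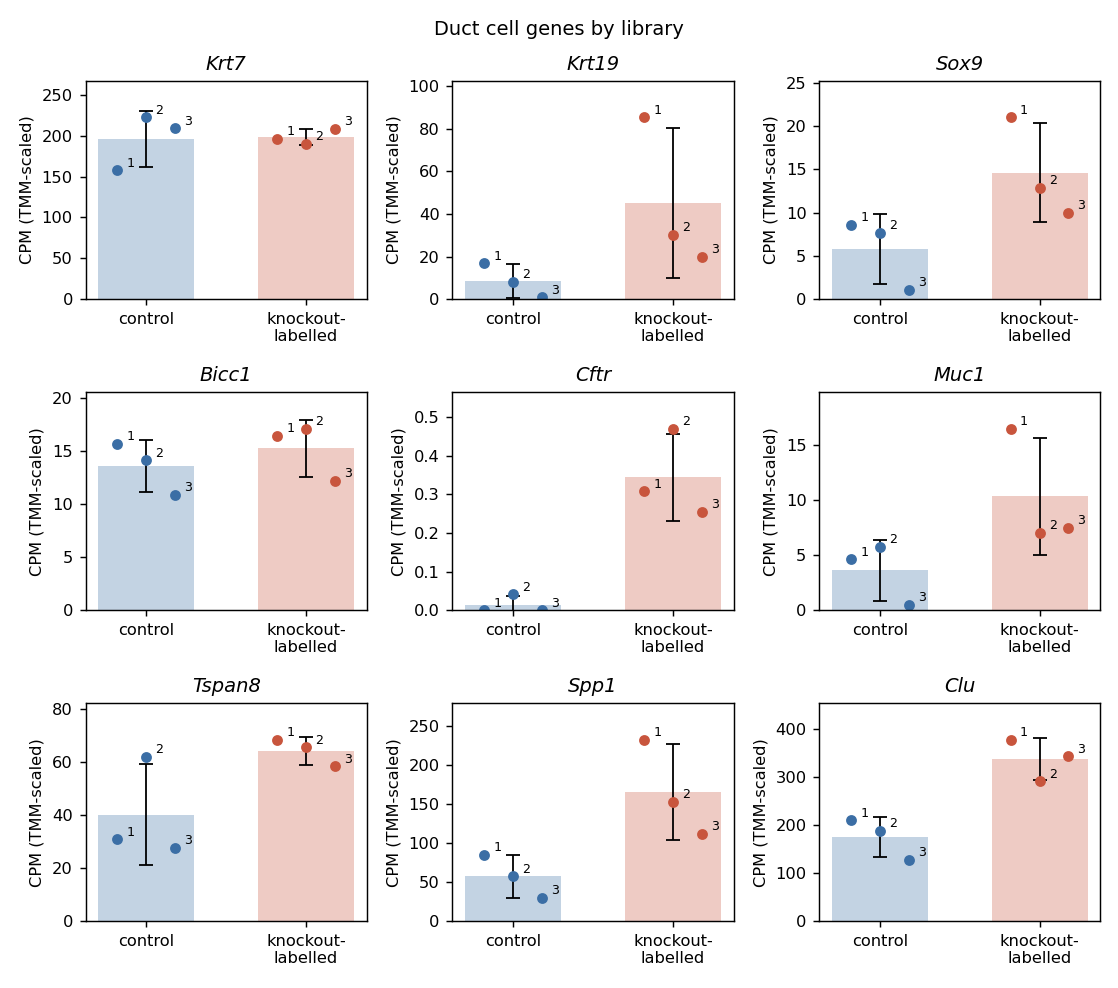
CPM of each of the 9 duct genes by group, with 1 numbered point per library, bars at the mean and error bars of 1 SD (n = 3). Control 3 is the lowest point for Krt19, Sox9, Muc1, Tspan8, Spp1 and Clu, knockout-labelled 1 is the highest for the same 6, and Krt7 shows neither.

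The 2 regulators also differed from each other. Sox9 (chromosome 11, 112782210 to 112787757, 3 exons) was at 8.56, 7.63 and 1.11 CPM in control islets and at 21.0, 12.8 and 9.95 CPM in knockout-labelled islets. The groups did not overlap, and only 28 counts fell on Sox9 in control 3. Its log2 fold change of 1.35 ± 0.53 (95% interval 0.16 to 2.54) did not pass (adjusted p = 0.143 in edgeR). For Sox9 it was 0.84 without control 3, 0.99 without knockout-labelled 1 and 0.49 without both (adjusted p = 0.151, 0.373 and 0.298). Bicc1, an RNA-binding protein linked to cystic kidney and duct disease (chromosome 10, 70925096 to 71159634 on the minus strand, 21 exons), showed no such spread. Its levels were 15.7, 14.1 and 10.9 CPM in control islets and 16.4, 17.1 and 12.2 CPM in knockout-labelled islets, with overlapping groups and a log2 fold change of 0.17 ± 0.17 (95% interval −0.22 to 0.56, adjusted p = 0.569).

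Among the surface and channel proteins, Muc1, the membrane mucin of apical duct surfaces (chromosome 3, 89229056 to 89233381, 7 exons), followed Sox9 closely. Muc1 levels were 4.63, 5.75 and 0.475 CPM in control islets and 16.5, 7.0 and 7.47 CPM in knockout-labelled islets. The groups did not overlap, control 3 held only 12 counts, and the log2 fold change of 1.52 ± 0.61 (95% interval 0.15 to 2.89) was not called (adjusted p = 0.151 in edgeR). The Muc1 value was 0.98 without control 3, 1.01 without knockout-labelled 1, 0.48 without both and 2.03 without control 2, and in none of these was it called (adjusted p from 0.177 to 0.423). Tspan8, a tetraspanin of epithelial membranes (chromosome 10, 115817284 to 115849893, 8 exons), was at 31.1, 62.2 and 27.8 CPM in control islets and 68.6, 65.7 and 58.5 CPM in knockout-labelled islets. Control 2 overlapped the knockout-labelled range for Tspan8, and the log2 fold change was 0.67 ± 0.26 (95% interval 0.10 to 1.24, adjusted p = 0.130), or 1.11 and called without control 2 (adjusted p = 0.0178). The Tspan8 value was 0.45 without control 3 (adjusted p = 0.331), 0.51 without control 1 (adjusted p = 0.266) and 0.62 without knockout-labelled 1 (adjusted p = 0.275).

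Cftr (chromosome 6, 18170687 to 18322769, 27 exons) was close to the limit of detection. Counts were 0, 1 and 0 in control islets and 7, 10 and 5 in knockout-labelled islets. A library with 0 counts allows a level of up to 3 counts, or 0.139 CPM in control 1 and 0.119 CPM in control 3, for counting error only. The ratio of summed, scaled counts was 24.5 with an exact 95% binomial interval of 3.96 to 1010.5, which covers counting error and not the spread between libraries. Without the filter on low counts edgeR gave an adjusted p of 0.0518 for Cftr.

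Across the 9 genes, single libraries set much of the spread. Control 3 was the lowest library for 7 genes and tied for the lowest on Cftr, while 19.2% of all genes tested were lowest in control 3. Knockout-labelled 1 was the highest for 6 genes, against 17.3% of all genes tested. Both extremes held for Krt19, Sox9, Muc1, Tspan8, Spp1 and Clu, against 5.96% of all genes tested. Between its lowest and highest library, Krt19 spanned 6.75 log2 units, Muc1 5.12, Sox9 4.24 and Spp1 2.95. Clu spanned 1.56 log2 units, Tspan8 1.30, Bicc1 0.65 and Krt7 0.50.

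Sox9 and Muc1 were the pair with the most alike profile, differing by a root mean square of 0.29 log2 units over the 6 libraries after each was centred on its mean. Per kb, the ratio of Muc1 to Sox9 stayed between 0.792 and 1.45 in every library. The ratio of Krt19 to Sox9 per kb was 5.95, 3.18 and 2.16 in control islets and 12.3, 7.12 and 6.03 in knockout-labelled islets. Krt19 and Krt7 were the least alike pair, at 2.09 log2 units.

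**Figure D3:**
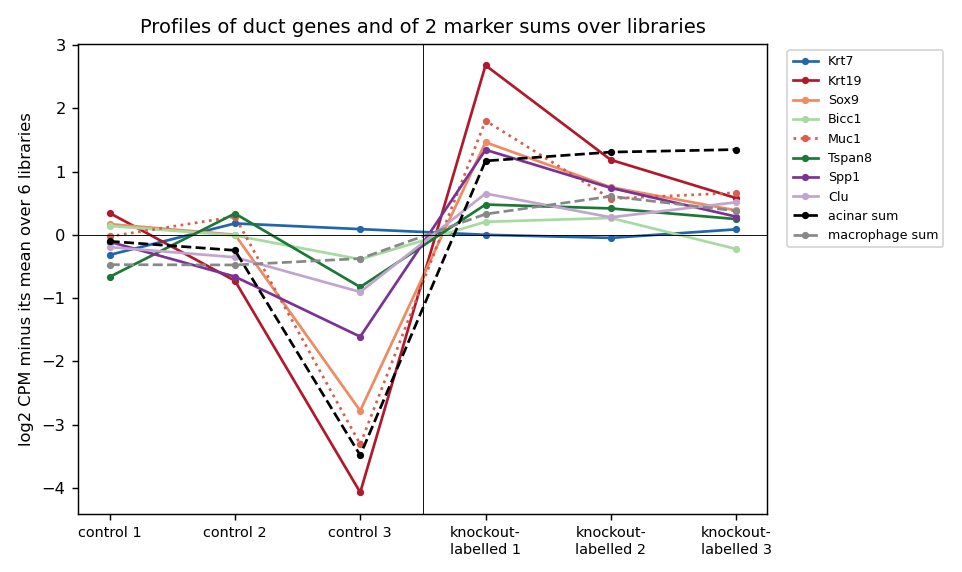
log2 CPM of the 8 tested duct genes and of the summed acinar and macrophage markers, each minus its own mean over the 6 libraries; lines only join the points of 1 gene or sum. Krt19, Sox9 and Muc1 drop in control 3 together with the acinar sum. Spp1, Clu, Tspan8 and Bicc1 are also lowest there, at −1.61, −0.90, −0.82 and −0.39. Krt7 stays near 0 in control 3, and the macrophage sum shows no drop there.

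The genes with the most alike centred profile among 10178 candidates differed between the members. For Krt19 they were Try5, a trypsin gene of a near-identical family whose counts are uncertain (0.63 log2 units), Pdia2, a protein disulfide isomerase (0.66), and Sycn, a zymogen granule protein (0.68). For Clu they were the endothelial transcription factor Sox18 (0.09), the translation repressor Eif4ebp1 (0.10) and Tinagl1, a matricellular protein (0.11). For Spp1 they were Serpinb1a, a protease inhibitor (0.20), Mgst1, a glutathione transferase (0.21), and Stmn1, a microtubule regulator (0.24). These are likenesses over 6 libraries that share 2 groups, given as a description.

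Summed markers of acinar, macrophage, stellate, endothelial and Schwann cells were also higher in each knockout-labelled library than in each control. Those of mesothelium overlapped between the groups. In control 3 the acinar sum was the lowest, while the macrophage and stellate sums (142 and 201 CPM) were the highest among controls. The part of these cell types in the results was not tested. Acinar markers (12 genes) summed to between 736 and 7680.2 CPM in control islets and between 18537 and 20991 CPM in knockout-labelled islets. Of 11 acinar genes tested, 1 rose in edgeR (Spink1, named after its values were seen), where 4.14% of all genes tested rose, and the median log2 fold change was 1.93. In DESeq2 0 of the 11 acinar genes were called and in limma-voom 2. In edgeR 9 of the 11 had an unadjusted p under 0.05, all higher in the knockout-labelled group. The groups did not overlap for 9 of the 11, against 32.1% of all genes tested in either direction. The enzyme gene Cela2a was at 2110, 1968 and 200 CPM in control islets and 5102, 5528 and 5305 CPM in knockout-labelled islets. The defining acinar transcription factor Ptf1a had 5, 0 and 0 counts in control islets and 7, 6 and 4 in the others. The list's other transcription factors, Bhlha15 and Rbpjl, were named after their values were seen, and their groups overlapped. Their log2 fold changes were 0.05 and 1.09 (adjusted p = 0.934 and 0.440 in edgeR). Rbpjl had few counts, 16, 15 and 0 in control islets and 11, 23 and 26 in knockout-labelled islets. Relative to 1000 CPM of acinar markers, Krt19 stood at 2.20, 1.16 and 1.07 CPM in control islets and at 4.60, 1.48 and 0.948 in knockout-labelled islets, so that the groups overlapped. On the same scale Sox9 was at 1.11, 1.10 and 1.5 against 1.13, 0.628 and 0.474, also overlapping. Clu per 1000 CPM of acinar markers was 27.4, 27.1 and 175 in control islets and 20.4, 14.3 and 16.4 in knockout-labelled islets, lower in each of the latter. Spp1 on this scale was at 11.0, 8.31 and 40.7 in control islets and 12.5, 7.49 and 5.32 in knockout-labelled islets, with overlapping groups.

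Macrophage markers (10 genes) summed to between 132 and 142 CPM in control islets and between 231 and 281 CPM in knockout-labelled islets, and 6 of 10 rose, beside 4.14% of all genes tested here and for the next 2 lists, with a median log2 fold change of 1.27. Relative to 1000 CPM of macrophage markers, Spp1 was at 638, 437 and 211 CPM in control islets and 1005, 545 and 466 CPM in knockout-labelled islets, with overlapping groups. Clu on the macrophage scale was at 1586, 1424 and 907 CPM in control islets and 1639, 1039 and 1438 CPM in knockout-labelled islets, also overlapping. Stellate and fibroblast markers (3 of 8 rose: Dcn, Lum and Pdgfra) summed to 62.3 to 201 CPM in control islets and 223 to 286 CPM in knockout-labelled islets. Endothelial markers (2 of 5 rose: Pecam1 and Vwf, named like the former 3 after their values were seen) summed to 250.4 to 342 CPM against 361 to 427 CPM. Kdr, Plvap and Cdh5, also named after their values were seen, were not called. Their log2 fold changes were −0.02, 0.36 and 0.47 (adjusted p = 0.955, 0.170 and 0.0974 in edgeR), and groups overlapped for Kdr and Plvap. Schwann cell markers summed to 7.95 to 10.4 CPM against 11.9 to 13.2 CPM. None of 4 Schwann cell genes passed edgeR's test (0 with an unadjusted p under 0.05, and 0 in DESeq2 or limma-voom).

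Markers of mesothelium, which shares keratins with ducts, were near 0 apart from Msln. They summed to 56.1 to 156 CPM in control libraries and 30.4 to 79.0 CPM in the others. Of the 6 markers, Upk1b, Wt1 and Lrrn4 had between 0 and 3 counts in every library, Upk3b had between 0 and 38, and Muc16 was not analysed here. Msln was abundant, with a log2 fold change of −0.995 ± 0.376 (adjusted p = 0.129 in edgeR). The 38 Upk3b counts were in knockout-labelled 1, the library with the highest Krt19 level. Upk3b had 0 counts in knockout-labelled 3, where Krt19 was at 19.9 CPM. Msln was highest in control 2, at 156 CPM, against 77.2 CPM in knockout-labelled 1. The part of mesothelium in the Krt19 levels was not tested.

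**Figure D4:**
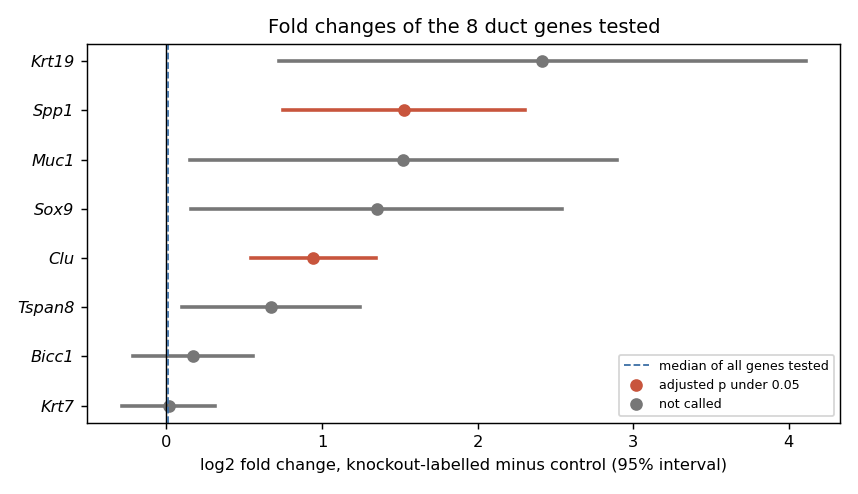
log2 fold change of the 8 tested duct genes, knockout-labelled minus control, with 95% intervals from edgeR; the dashed line is the median of all genes tested. Clu and Spp1 (red) passed an adjusted p of 0.05, and the interval of Krt19, from 0.72 to 4.11, is the widest.

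A wider list of 56 genes did not move one way as a whole. It held other duct genes, cilium and cyst genes, and receptors of osteopontin and clusterin. Of 49 tested, 4 rose and 3 fell, against backgrounds of 4.14% and 2.63%, and the median log2 fold change was 0.21. The log2 fold change was positive for 33 and negative for 16, where 50.9% of all genes tested were positive. All 10 keratin and surface genes and all 4 secreted proteins tested were positive (medians 0.42 and 1.85), and the 16 negative ones lay in the other roles. Without knockout-labelled 1 or without control 2, 1 of the 49 was called, without knockout-labelled 3 it was 3 and without control 3 it was 4. By role, the transcription factors went in both directions. Ehf, an epithelial ETS factor, rose from 11.2, 9.96 and 12.8 CPM to 19.6, 19.8 and 17.7 CPM (log2 fold change 0.75 ± 0.13, adjusted p = 0.0175). Elf3, another epithelial ETS factor, fell from 65.4, 75.1 and 97.5 CPM to 46.2, 40.3 and 43.0 CPM (−0.88 ± 0.14, adjusted p = 0.0155). Prox1, a homeobox factor of pancreas and lymphatic vessels, fell by 0.42 ± 0.10 on the log2 scale (adjusted p = 0.0351), a call lost without control 2, control 3, knockout-labelled 1 or knockout-labelled 3 (adjusted p from 0.0810 to 0.106). Both ETS calls were lost without control 2 and without knockout-labelled 1, with adjusted p between 0.0512 and 0.0738.

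Of the fluid transport genes, Aqp1, a water channel of duct and endothelial cells, was the only one of the 8 tested that rose. Aqp1 counts were 102, 179 and 125 in control islets and 683, 428 and 364 in knockout-labelled islets (log2 fold change 2.002 ± 0.230, adjusted p = 0.00543 in edgeR), with no overlap, and Aqp1 also passed with any single library left out. The summed endothelial markers given above were higher in the same libraries, and their part in this rise was not tested. Adora2b, an adenosine receptor that can activate CFTR, fell from 37.4, 58.9 and 71.8 CPM to 24.8, 29.6 and 14.6 CPM (−1.28 ± 0.27, adjusted p = 0.0294), and was not called without control 2, control 3, knockout-labelled 1 or knockout-labelled 3 (adjusted p from 0.0588 to 0.0974). The CFTR-binding scaffold Slc9a3r1 gave 0.11 ± 0.13 (adjusted p = 0.648).

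The simple epithelial keratins Krt8 and Krt18, abundant in islets, gave log2 fold changes of 0.32 ± 0.16 (adjusted p = 0.235) and 0.30 ± 0.13 (adjusted p = 0.189), at 237 and 200.4 CPM per kb over the 6 libraries. Of the 10 keratin and surface genes tested, the glycoprotein Cd24a rose (0.69 ± 0.13, adjusted p = 0.0210); leaving out control 2, control 3, knockout-labelled 1 or knockout-labelled 3 ended this call (adjusted p from 0.0508 to 0.0800). The keratin gene Krt23, named after its values were seen, had 22, 11 and 0 counts in control islets and 113, 29 and 26 counts in knockout-labelled islets. As for Krt19, control 3 was lowest, knockout-labelled 1 was highest and the groups did not overlap, but Krt23 did not pass (adjusted p = 0.117 in edgeR).

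None of the 4 other secreted duct proteins tested passed in edgeR (4 with an unadjusted p under 0.05, 2 called in DESeq2 and 1 in limma-voom). The trefoil peptide Tff2, the most abundant of them per kb, was at 20.3, 19.6 and 2.21 CPM in control islets and 48.5, 56.2 and 48.4 CPM in knockout-labelled islets (1.87 ± 0.54, adjusted p = 0.0631). Without control 3 the Tff2 difference was 1.34 and called (adjusted p = 0.00340). Unlike Krt19, Tff2 was highest in knockout-labelled 2. The summed acinar markers given above were also lowest in control 3 and higher in each knockout-labelled library. The part of acinar cells in the Tff2 values was not tested. Ambp, a precursor of bikunin, gave 0.57 ± 0.18 (adjusted p = 0.0759), or 0.79 and called without control 1 (adjusted p = 0.0250).

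Among 8 receptors of osteopontin, Cd44, a receptor also carried by leukocytes, rose by 0.60 ± 0.14 on the log2 scale (adjusted p = 0.0362), a call lost when any single library other than knockout-labelled 2 was left out. The integrin chains Itgb1 (0.18 ± 0.10, adjusted p = 0.299) and Itgb5 (0.22 ± 0.11, adjusted p = 0.243) were not called. The clusterin receptors Lrp8 (0.03 ± 0.13, adjusted p = 0.899) and Vldlr (−0.35 ± 0.25, adjusted p = 0.399) were not called either. Of the 9 cilium and cyst genes 0 were called in edgeR, DESeq2 or limma-voom (2 with an unadjusted p under 0.05, both lower); Pkd2 gave 0.18 ± 0.11 (adjusted p = 0.335) and Anks3, a partner of the BICC1 protein, 0.31 ± 0.17 (adjusted p = 0.269).

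**Figure D5:**
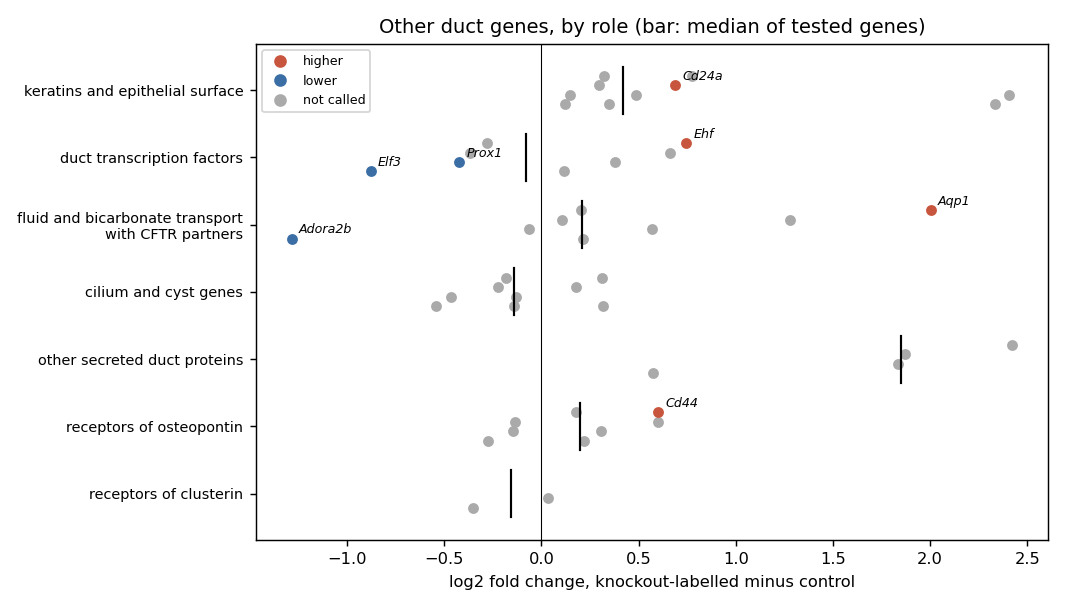
log2 fold change of the 49 tested genes of the wider list by role, knockout-labelled minus control, with a bar at each role's median and called genes named (red higher, blue lower). The 4 secreted proteins lie above 0.5, the transcription factors lie on both sides of 0, and the called genes are spread over 4 roles.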

How the data were processed

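Per the labels' protocols, 10 ng of total RNA per sample was reverse transcribed from a poly-dT primer with a SMART-Seq v4 low-input kit, sheared by sonication and made into Ion Plus fragment libraries. Such libraries keep no strand or molecular identifiers, and amplification adds noise to rare transcripts. Build mm10 and the tools featureCounts, STAR 2.4.2a, edgeR and Subread 1.5.0 are named in the submitters' processing notes. The annotation used and the settings of counting were not given in the sources used here. Raw counts per gene make up the authors' deposited table, with, per the file headers, exon coordinates and summed exon length in another unit (bp), used for values per kb.

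Counts were tested with edgeR 4.0.16 in R 4.3.3 (TMM factors, the default expression filter, quasi-likelihood test, group as the only term), with Benjamini-Hochberg adjustment over 13736 genes and a threshold of 0.05. SE and intervals come from the fold change and its F value. CPM use TMM-scaled library sizes. The scripts were tested on simulated data. No exon of the 9 genes overlapped another gene of the table (GenomicRanges 1.54.1). Within groups, libraries differed by more than counting noise (chi-square per degree of freedom 11.2 or more).

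Members and lists were chosen with earlier results of these data known, and 1 gene of the wider list is not reported here by name. Named were the 9 members, called genes of each role in the wider list (up to 4), the 2 with the highest level per kb, defining markers, and for Krt19, Clu and Spp1 the 3 genes of most alike profile at a mean log2 CPM of at least 2. Alternatives were RLE and upper-quartile factors, other filters, DESeq2 1.42.0, limma-voom (limma 3.58.1), a replicate block, library totals without acinar and hormone genes, and fits that left out libraries.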

Additional observations from a re-analysis of the deposited data

How the results depend on the processing

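The directions of Krt19, Sox9, Muc1, Tspan8, Spp1 and Clu were positive in all 15 alternatives; Krt7 and Bicc1 were near 0 and positive in 12 and 14 of them. Of 2 duct genes called, the count was 4 with a replicate block (Krt19, Sox9, Spp1 and Clu), 3 without the filter on low counts, from 0 to 3 when single libraries were left out, and 0 without both control 3 and knockout-labelled 1, where the median log2 fold change of the 8 was 0.48. The 7 genes called in the wider list became 11 without the filter and 11 in DESeq2, from 1 to 9 with single libraries left out, and 2 without both of those libraries. Over all genes, 929 calls became 1413 without the filter, 1702 in DESeq2, from 64 to 968 with single libraries left out and 59 without both. Whether the replicate numbers mark pairs could not be settled. The deviations of same-numbered libraries correlated at −0.04, −0.01 and 0.05, and knockout-labelled 1 correlated best with control 2 (0.13). With 3 libraries per group such values cannot exclude a shared batch or litter. The sections before this one use no blocked value. The block gave 826 calls over all genes. With that block Prox1 was not called (adjusted p = 0.0570), and Krt19 had an adjusted p of 0.0143. The count of 20 for Krt19, 28 for Sox9 and 12 for Muc1 in control 3, and of 22 or fewer for Krt23 and Cftr in the controls, limits the precision of their fold changes.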
